A study of Mus musculus with 15 samples.

Results

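The 9 genes *Abca12*, *Alox12b*, *Aloxe3*, *Elovl1*, *Elovl4*, *Ugcg*, *Smpd1*, *Sptlc1* and *Sptlc2* supply and process the lipids of the epidermal permeability barrier. They were chosen by name for their known role in making, moving or processing these lipids, with earlier results of these data known. All 9 are among the 21110 genes with deposited values. The values come from RNA-Seq of mouse ears on the C57BL/6 background. At 2 weeks after birth 4 wild type and 4 *Socs3* cKO mice were measured, and at 10 weeks 3 wild type and 4 *Socs3* cKO mice. In *Socs3* cKO mice, *Socs3*, a feedback inhibitor of cytokine signalling, is deleted under control of the keratin 5 promoter, which is active in basal keratinocytes and the hair follicle. The labels name keratinocytes as the source, whereas the protocol describes RNA from ear specimens, and markers of fibroblasts, muscle and leukocytes were present in every library. The S-numbers in the sample titles fall in ranges that do not overlap between the groups and the labels do not say what they mark, so any batch that follows them cannot be told apart from the condition.

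The outermost layer of the skin holds water because its dead cells lie in stacked sheets of ceramides, cholesterol and fatty acids. Serine palmitoyltransferase starts ceramide synthesis, elongases lengthen the fatty acids that ceramides carry, and the ceramides are glucosylated and packed into lamellar granules of the granular layer. After secretion, enzymes outside the cell remove the head groups, while lipoxygenases oxidise the linoleate of acylceramides so that ceramides can be attached to the surface of the cell. Loss of several of these genes is known to cause ichthyosis, a disease of dry and scaling skin.

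In mm9, *Abca12* lies on chromosome 1 from 71289664 to 71461484 on the minus strand and has up to 53 exons in 1 transcript. *Aloxe3* (chromosome 11, 68939398 to 68962617) and *Alox12b* (chromosome 11, 68970491 to 68983294) are neighbours on the plus strand with 7873 bases between them. *Elovl4* lies on the minus strand of chromosome 9, from 83672300 to 83699912. The promoters of the 3 members with the largest log2(FC) at 10 weeks, *Abca12*, *Alox12b* and *Elovl4*, are shown because their windows differ in the motifs they hold. Each window runs from 250 bases before to 50 after the start of the gene, as RefSeq gives it for GRCm38.p6. Capitals mark the matches to 6 motifs searched on both strands, namely the TATA box (TATAAA), the CCAAT box (spelled as in its name), the GC box (GGGCGG), an AP-1 element (TGANTCA), a STAT element (TTCNNNGAA) and an E-box (CACGTG). The windows are chr1:71414861-71415160 on the minus strand for *Abca12*, chr11:69156822-69157121 on the plus strand for *Alox12b* and chr9:83806256-83806555 on the minus strand for *Elovl4*.
Abca12: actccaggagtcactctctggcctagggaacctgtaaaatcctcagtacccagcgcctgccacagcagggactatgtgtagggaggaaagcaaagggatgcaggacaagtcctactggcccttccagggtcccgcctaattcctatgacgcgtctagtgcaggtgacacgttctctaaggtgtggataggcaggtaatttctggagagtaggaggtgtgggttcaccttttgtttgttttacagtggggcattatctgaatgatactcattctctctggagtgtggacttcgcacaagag
Alox12b: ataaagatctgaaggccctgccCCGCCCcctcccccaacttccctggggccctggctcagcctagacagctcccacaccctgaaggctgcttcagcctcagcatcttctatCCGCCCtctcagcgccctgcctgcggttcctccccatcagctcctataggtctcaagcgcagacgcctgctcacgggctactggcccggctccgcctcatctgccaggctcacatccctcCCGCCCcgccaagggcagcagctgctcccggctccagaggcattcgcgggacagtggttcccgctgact
Elovl4: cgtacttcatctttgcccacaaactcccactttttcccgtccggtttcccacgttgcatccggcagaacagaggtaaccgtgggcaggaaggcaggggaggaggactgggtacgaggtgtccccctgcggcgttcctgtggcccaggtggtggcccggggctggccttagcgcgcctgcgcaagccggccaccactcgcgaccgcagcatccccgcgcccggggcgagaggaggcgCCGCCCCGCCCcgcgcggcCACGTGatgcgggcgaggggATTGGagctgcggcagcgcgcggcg

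The *Abca12* window held none of the 6 motifs. The *Alox12b* window held 3 GC boxes, of which the nearest began 19 bases before the start. The *Elovl4* window held 2 GC boxes that share 1 base, directly before the start, and an E-box and a CCAAT box after it. A RefSeq entry was found for 8 of the 9 members, in 9 windows, since *Elovl1* has 2. No entry was found for *Aloxe3*. GC boxes were in 8 of the 9 windows (35.7% of all 32851 promoters hold one), the CCAAT box in 5 (37.4% of all) and the E-box in 1 (7.15% of all). None held the TATA box, the AP-1 element or the STAT element, which are in 13.6%, 7.81% and 8.3% of all promoters. A match is a description of the letters, and no binding was measured.

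The members were measured over a wide range of levels. Levels are given as FPKM, that is, reads scaled by the length of the gene and by the number of mapped reads. *Elovl4* was the highest member and *Elovl1* the next in every group. The mean of *Elovl4* was 43.2 times that of the lowest member, *Abca12*, in the wild type at 2 weeks, and 24.0 times that of the lowest member, *Aloxe3*, in *Socs3* cKO at 10 weeks. The order of the other 7 changed between the groups, and neighbours in it such as *Aloxe3*, *Ugcg*, *Alox12b* and *Sptlc2* in the wild type at 2 weeks had overlapping ranges. From the smallest values above 0 the libraries were estimated to hold 11700000 to 16700000 mapped reads. By that estimate the lowest member value rested on 132 reads (*Abca12* in wild type mouse 3 at 10 weeks) and the highest on 29905 reads (*Elovl4* in *Socs3* cKO mouse 4 at 2 weeks).

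**Figure D1:**
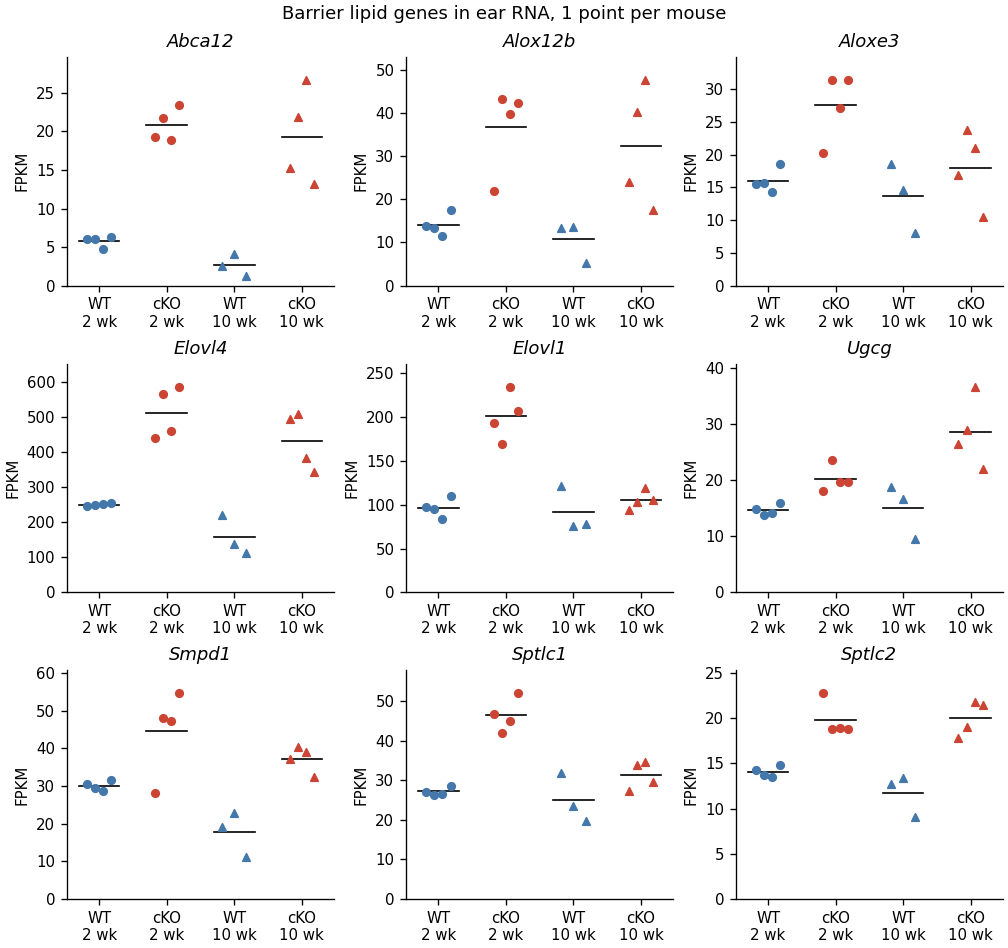
FPKM (linear axes from 0) of the 9 barrier lipid genes in each mouse by genotype and age; WT is wild type, cKO is *Socs3* cKO, circles are mice of 2 weeks, triangles mice of 10 weeks, and black lines group means. All *Socs3* cKO mice lie above all wild type mice of their age for *Abca12*, *Alox12b*, *Elovl4*, *Ugcg* and *Sptlc2* at both ages, and *Elovl1* is highest in *Socs3* cKO at 2 weeks.

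Facts of the libraries bear on what follows. *Socs3* itself was 9.71 to 10.3 FPKM in wild type ears and 1.25 to 12.6 in *Socs3* cKO mice at 2 weeks, and 2.02 to 4.81 against 29.8 to 47.7 at 10 weeks, so its level did not mark the deletion. An FPKM of the whole gene does not separate the deleted part. Among the libraries, *Socs3* cKO mouse 1 at 2 weeks stood apart, with 11698 genes at or above 1 FPKM against 12684 to 12987 in the other 3 of its group. All 3 wild type libraries of 10 weeks listed fewer genes at 0 (1414 to 3176) than the other 12 (4044 to 4423). A member or other gene was called up- or down-regulated at an adjusted p below 0.01 and a log2(FC) of at least 1 in size (limma on log2(FPKM + 0.1), Benjamini-Hochberg over all genes tested).

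At 2 weeks, 4 of the 9 members were up-regulated in *Socs3* cKO: *Abca12*, *Alox12b*, *Elovl1* and *Elovl4*. They carry out lipid transport, lipoxygenation and fatty acid elongation. No member was called lower (limma, with 9 of 9 members at an unadjusted p below 0.05, each with the higher mean in *Socs3* cKO). Of the 13524 genes tested, 7842 had an unadjusted p below 0.05 by limma, and 7.24% were called higher and 7.19% lower. For 8 of the 9 members every *Socs3* cKO mouse lay above every wild type mouse, as for 22.9% of all genes tested, and the exception was *Smpd1*. The median log2(FC) was 0.768 over the members and -0.211 over all genes tested.

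*Abca12*, the transporter that loads lipids into lamellar granules, had the largest difference of the members. Its FPKM was 6.06, 6.05, 4.76 and 6.31 in wild type mice and 19.3, 21.8, 18.8 and 23.5 in *Socs3* cKO mice. The lowest *Socs3* cKO mouse was far above the highest wild type mouse. The log2(FC) was 1.83 (SE 0.15, adjusted p = 0.00012 by limma), a 3.56-fold higher level.

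*Alox12b* and *Aloxe3* encode the lipoxygenases that act one after the other on acylceramides. *Alox12b* was 13.9, 13.3, 11.4 and 17.6 FPKM in wild type mice and 21.9, 43.2, 39.8 and 42.4 in *Socs3* cKO mice. Mouse 1 of *Socs3* cKO was the lowest of its group and still above the wild type. The log2(FC) was 1.35 (SE 0.25, adjusted p = 0.0044 by limma), and the call was lost without wild type mouse 1, 2 or 3 or *Socs3* cKO mouse 3 or 4, where it was 1.26 to 1.35. *Aloxe3* was 15.5, 15.8, 14.3 and 18.6 FPKM in wild type mice and 20.2, 31.4, 27.1 and 31.4 in *Socs3* cKO mice. The groups did not overlap, but *Aloxe3* missed both limits of the call, with a log2(FC) of 0.76 (SE 0.18, adjusted p = 0.011 by limma). The interval of its difference ran from 0.36 to 1.16 (95%).

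The elongases *Elovl4*, which makes the ultra-long fatty acids of acylceramides, and *Elovl1*, which makes the very long fatty acids of other ceramides, were both up-regulated. *Elovl4* was tightly grouped in the wild type, at 246, 250, 252 and 253 FPKM, and was 439, 564, 459 and 587 FPKM in *Socs3* cKO. Its log2(FC) was 1.02 (SE 0.14, adjusted p = 0.0012 by limma). *Elovl1* was 97.5, 95.5, 83.4 and 110 FPKM in wild type mice and 194, 170, 235 and 207 in *Socs3* cKO mice, with a log2(FC) of 1.06 (SE 0.15, adjusted p = 0.0014). Both lay just above the fold limit. They fell under it with quantile normalization (0.47 for *Elovl4* and 0.73 for *Elovl1*) and, for *Elovl4*, without *Socs3* cKO mouse 2 or 4 (0.97 and 0.95), for *Elovl1* without wild type mouse 3 or *Socs3* cKO mouse 3 (0.99 and 0.98).

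Both long subunits of serine palmitoyltransferase were separated between the genotypes without reaching the fold limit. *Sptlc1* was 27.2, 26.4, 26.6 and 28.6 FPKM in wild type mice and 46.9, 42.1, 45.0 and 52.1 in *Socs3* cKO mice (log2(FC) 0.77, SE 0.12, adjusted p = 0.002 by limma). *Sptlc2* was 14.3, 13.7, 13.4 and 14.8 FPKM in wild type mice and 22.8, 18.8, 18.9 and 18.8 in *Socs3* cKO mice (log2(FC) 0.49, SE 0.12, adjusted p = 0.015). In the latter, mouse 1 was the highest of its group.

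*Ugcg*, which glucosylates ceramide before it is packed, was 14.9, 13.9, 14.2 and 15.9 FPKM in wild type mice and 18.1, 23.7, 19.8 and 19.7 in *Socs3* cKO mice. Its groups did not overlap and the log2(FC) was 0.45 (SE 0.13, adjusted p = 0.024 by limma). *Smpd1*, the acid sphingomyelinase that releases ceramide from sphingomyelin, was 30.6, 29.6, 28.6 and 31.5 FPKM in wild type mice and 28.0, 48.1, 47.2 and 54.7 in *Socs3* cKO mice. Mouse 1 of *Socs3* cKO was below all wild type mice, and the other 3 were above them. The log2(FC) was 0.52 (SE 0.21, adjusted p = 0.065), and 0.73 without that mouse, neither of which was called.

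With each library's trend with transcript length and GC content removed, 4 of the 9 members were again called at 2 weeks, but not the same 4. *Abca12* (log2(FC) 1.76) and *Alox12b* (1.82) stayed called and *Aloxe3* (1.37) and *Smpd1* (1.04) were added, each with an adjusted p below 0.01 by limma. *Elovl4* fell to 0.51 and *Elovl1* to 0.94, and both calls were lost. Among the members not called in either fit, *Ugcg* was 0.075 and *Sptlc1* 0.48.

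These values are from whole ear, in which more cells of a type and more RNA per cell cannot be told apart. The summed FPKM of 7 suprabasal keratinocyte markers was 6580 to 7830 in wild type mice against 12500 to 14900 in *Socs3* cKO mice at 2 weeks, with 4 of 7 called higher. The mean log2 level of 7 granular keratinocyte markers differed by 0.461 and its groups overlapped, and for 7 basal markers the difference was -0.27, also with overlap. The 5 sebaceous gland markers summed to 85.1 to 92.1 FPKM in wild type mice against 160 to 242 in *Socs3* cKO mice, with 3 of 5 called higher. All 11 hair follicle markers found were called lower, and their sum was 2730 to 3980 FPKM against 7.77 to 75.1. Mean log2 levels of markers of other tissue differed as well, by 1.52 for adipocytes (with overlap), 1.34 for skeletal muscle, -0.69 for fibroblasts, -0.71 for endothelium and -0.99 for cartilage (2 of 4 called lower). No keratinocyte, sebaceous or hair follicle marker was at 0 in any library of 2 weeks. The part of these changes in the members' values was not tested. When each library was centred on its basal and suprabasal markers, 2 members, *Abca12* and *Alox12b*, were still called. That centring averages the basal (-0.27) and suprabasal (0.903) differences into a common shift of -0.318. It therefore cannot tell more cells from more RNA per cell.

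**Figure D2:**
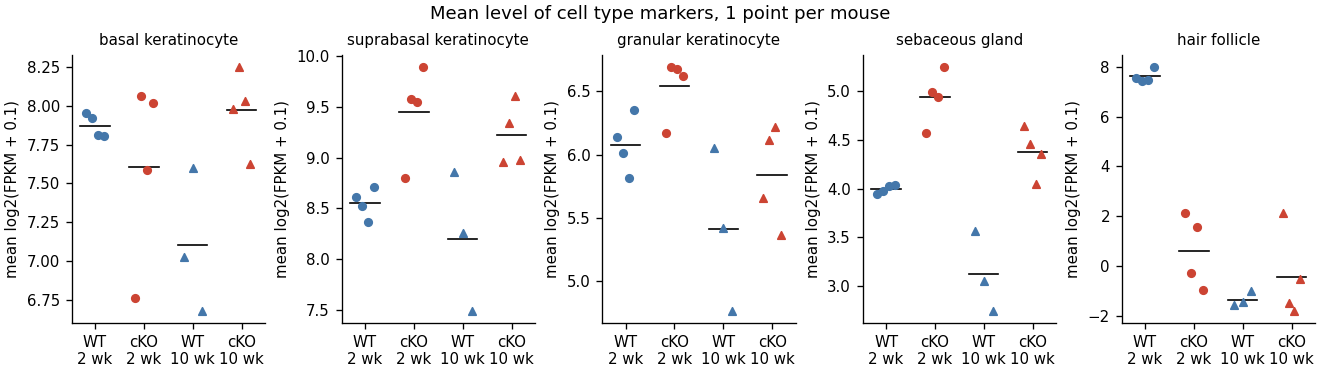
Mean log2(FPKM + 0.1) of the markers of 5 cell types in each mouse, by genotype and age; WT is wild type, cKO is *Socs3* cKO, circles are mice of 2 weeks, triangles mice of 10 weeks, black lines are group means, and the vertical axes differ and do not start at 0. Suprabasal and sebaceous markers lie higher in *Socs3* cKO at both ages, while the hair follicle markers lie lower in *Socs3* cKO at 2 weeks by 7.0 on the log2 scale.

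At 10 weeks, 3 of the 9 members were up-regulated: *Abca12*, *Elovl4* and *Smpd1*. *Alox12b* and *Elovl1*, which were called at 2 weeks, were not called here. No member was called lower (limma, with 6 of 9 members at an unadjusted p below 0.05, each with the higher mean in *Socs3* cKO). Of the 13105 genes tested, 6385 had an unadjusted p below 0.05 by limma, and 12.5% were called higher and 2.43% lower. Every *Socs3* cKO mouse lay above every wild type mouse for 6 of the 9 members, as for 31.2% of all genes tested. The median log2(FC) was 0.959 over the members and 0.312 over all genes.

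The coefficient of variation of the members was 19.8% to 54.8% in the wild type at this age and 1.32% to 18.3% at 2 weeks, and wild type mouse 3 had the lowest value of its group for 8 of the 9 members. *Abca12* was 2.58, 4.05 and 1.20 FPKM in wild type mice and 15.3, 21.8, 26.7 and 13.2 in *Socs3* cKO mice. There was no overlap, and the log2(FC) was 2.93 (SE 0.39, adjusted p = 0.00085 by limma), a 7.64-fold higher level. On leaving out each mouse in turn the log2(FC) ranged from 2.48 to 3.32, and *Abca12* stayed called.

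Of the lipoxygenases, *Alox12b* separated the genotypes at this age and *Aloxe3* did not. *Alox12b* was 13.3, 13.6 and 5.16 FPKM in wild type mice and 24.1, 40.2, 47.7 and 17.4 in *Socs3* cKO mice. The groups were separate, but both were widely spread, and the log2(FC) of 1.60 (SE 0.42) had an adjusted p of 0.015 by limma, short of the call. *Aloxe3* was 18.6, 14.6 and 8.0 FPKM in wild type mice and 16.9, 23.8, 21.0 and 10.4 in *Socs3* cKO mice. These overlapped, and the log2(FC) of 0.41 (SE 0.34, adjusted p = 0.36) had an interval of -0.35 to 1.17 (95%).

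Of the elongases, *Elovl4* was up-regulated and *Elovl1* was not called. *Elovl4* was 220, 139 and 111 FPKM in wild type mice and 495, 509, 382 and 342 in *Socs3* cKO mice, with no overlap and a log2(FC) of 1.5 (SE 0.26, adjusted p = 0.0029 by limma). It was not called without wild type mouse 3, where the log2(FC) was 1.29 and the adjusted p by limma 0.016. *Elovl1* was 121, 75.3 and 77.6 FPKM in wild type mice and 94.4, 103, 119 and 106 in *Socs3* cKO mice. All 4 *Socs3* cKO values fell within the range of the wild type, and the log2(FC) was 0.24 (SE 0.20, adjusted p = 0.36 by limma, 95% interval -0.21 to 0.69).

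*Smpd1* was 19.1, 22.9 and 11.1 FPKM in wild type mice and 37.2, 40.5, 38.9 and 32.5 in *Socs3* cKO mice. There was no overlap, and it was called with a log2(FC) of 1.13 (SE 0.24, adjusted p = 0.0065 by limma). The call was lost in 10 of 18 alternatives, among them leaving out wild type mouse 1 or 3 or *Socs3* cKO mouse 1, 2 or 3, with a lowest log2(FC) of 0.83 over the mice left out. *Ugcg* was 18.8, 16.7 and 9.52 FPKM in wild type mice and 26.5, 29.0, 36.7 and 22.0 in *Socs3* cKO mice, and its groups were separate. Its log2(FC) of 0.96 (SE 0.26, adjusted p = 0.018 by limma) was not called.

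The serine palmitoyltransferase subunits were not called at this age. *Sptlc1* was 31.9, 23.5 and 19.7 FPKM in wild type mice and 27.3, 33.8, 34.7 and 29.6 in *Socs3* cKO mice. These values overlapped, and the log2(FC) was 0.35 (SE 0.20, adjusted p = 0.19 by limma). *Sptlc2* was 12.7, 13.4 and 9.06 FPKM in wild type mice and 17.9, 19.0, 21.8 and 21.5 in *Socs3* cKO mice, without overlap, and its log2(FC) was 0.78 (SE 0.19, adjusted p = 0.01).

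All 9 members had a mean log2(FC) above 0 at 10 weeks on the values as deposited, but with the libraries centred on the keratinocyte markers *Aloxe3*, *Elovl1*, *Sptlc1* and *Sptlc2* lay below 0, as did *Elovl1* under median-of-ratios scaling. The centring moves the log2(FC) of every gene by the same amount, -0.946 at 10 weeks and -0.318 at 2 weeks, so these signs follow from that common shift, and the members' median became 0.0127 where that of all genes became -0.63. All 9 stayed above 0 at 2 weeks under the 3 other scalings, where the members' median was 0.449 to 0.974. The split of all genes depended on the scaling as well. As deposited, 1638 genes were called higher and 319 lower at 10 weeks, against 1066 and 643 under median-of-ratios scaling, 909 and 817 under quantile normalization and 380 and 2597 with the centring. At 2 weeks 979 and 972 became 344 and 4085 with the centring.

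Cell type markers differed between the genotypes at 10 weeks too. The 7 suprabasal markers summed to 7130 to 15800 FPKM in wild type mice against 9100 to 13500 in *Socs3* cKO mice, with 2 of 7 called higher, and their mean log2 level was higher by 1.02 with no overlap. The mean log2 level of the 7 basal markers was higher by 0.872, also without overlap. Leukocyte markers summed to 53.3 to 76.4 FPKM against 136 to 168, with 5 of 6 called higher, and the mean log2 level was higher by 1.26 for sebaceous and 1.22 for adipocyte markers, both without overlap. It was also higher by 1.58 for endothelium (3 of 3 called higher) and 0.807 for fibroblasts, both without overlap. The granular markers summed to 1090 to 2050 FPKM in wild type mice against 399 to 677 in *Socs3* cKO mice, but their mean log2 level was higher by 0.428 with overlap, and 1 of 7 was called lower. The part of these differences in the members' values was not tested, and the centring, which moves all genes alike, cannot show it.

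**Figure D3:**
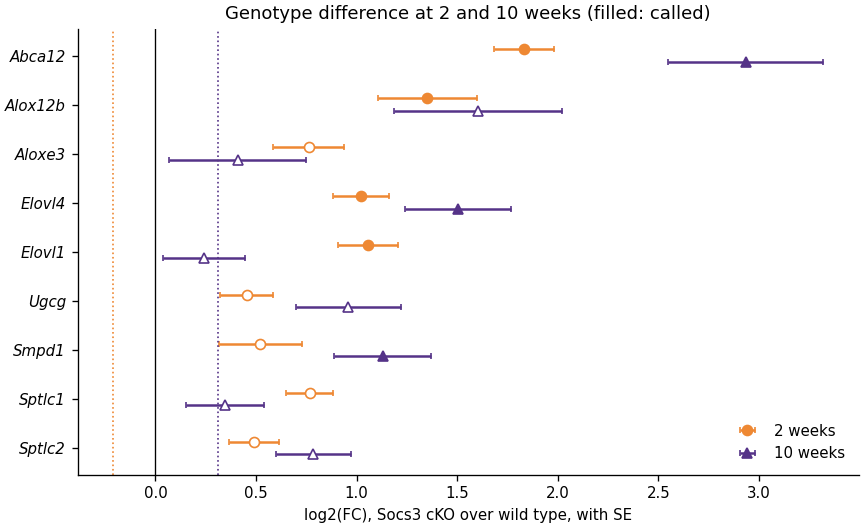
log2(FC) of *Socs3* cKO over wild type on log2(FPKM + 0.1) for each member, with bars of 1 SE; circles are 2 weeks, triangles 10 weeks, filled symbols were called, and dotted lines mark the median of all genes tested at each age. *Abca12* is farthest to the right at both ages (1.83 and 2.93), and *Elovl1* lies at 1.06 at 2 weeks and at 0.24 at 10 weeks.

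Whether the genotype difference depended on age was tested as an interaction over all 4 groups. No member passed an adjusted p of 0.01 by limma, whereas 25.6% of the 13937 genes tested did. An unadjusted p below 0.05 by limma was reached by 7726 of all genes and by 2 of the 9 members. These members were *Elovl1* and *Abca12*. The difference of *Elovl1* was smaller at 10 weeks by a log2 value of -0.81 (SE 0.25, adjusted p = 0.016 by limma). That of *Abca12* was larger by 1.10 (SE 0.44, adjusted p = 0.052). The median interaction was 0.295 over the members and 0.553 over all genes as deposited. Over all genes it was 0.0906 under median-of-ratios scaling, -0.0887 under quantile normalization and -0.0754 with the centring. It was above 0 for 6 members as deposited, and for 4, 3 and 1 under those scalings. *Elovl1* passed under median-of-ratios scaling, as did *Sptlc1*, which also passed under quantile normalization. The calls of *Alox12b*, *Elovl1* and *Smpd1* at 1 age only were therefore not shown to be differences between the ages.

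Within the wild type, all 9 members had lower means at 10 than at 2 weeks on the log2 scale, by -1.27 to -0.03, where the median of all genes was -0.44. Only *Abca12* was called lower (-1.27, SE 0.32, adjusted p = 0.0055 by limma), and no member was called higher (3 of 9 at an unadjusted p below 0.05). Of the 13937 genes tested, 8023 had an unadjusted p below 0.05 by limma, and 19.4% were called lower and 6.18% higher. The *Abca12* call was lost under each of the 3 other scalings and without wild type mouse 3 of 10 weeks or wild type mouse 1, 2 or 4 of 2 weeks. Within *Socs3* cKO no member was called (limma, with 4 of 9 at an unadjusted p below 0.05). Of the 13937 genes tested, 3681 had an unadjusted p below 0.05 by limma, and 2.01% were called higher and 1.53% lower. *Elovl1* was lower at 10 weeks by -0.92 (SE 0.17, adjusted p = 0.0032 by limma), under the fold limit, and its 4 values were all below the 4 of 2 weeks. *Sptlc1* was lower by -0.57 (SE 0.15, adjusted p = 0.028), again without overlap.

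A factor common to all genes of a library cancels in the ratio of a pair of its genes. Between the genotypes, 3 ratios of partner genes were compared, which were chosen with earlier results of these data known. Quantile normalization and the removal of the trend with transcript length and GC content are no such factors, and neither was applied to the ratios. The ratio of *Aloxe3* to *Alox12b* was 1.12, 1.18, 1.25 and 1.06 in the wild type at 2 weeks and 0.921, 0.729, 0.682 and 0.741 in *Socs3* cKO. All *Socs3* cKO mice were below all wild type mice, with a log2 difference of -0.59 (exact permutation test, 2-sided, p = 0.0286, the smallest that 4 against 4 mice allow, and 0.0857 after adjustment over 6 ratio tests). At 10 weeks it was 1.39, 1.07 and 1.54 against 0.702, 0.593, 0.441 and 0.602. The groups were again separate, with a log2 difference of -1.19 (exact permutation p = 0.0571, the smallest that 3 against 4 allow, adjusted 0.0857). No ratio test passed 0.05 after adjustment.

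The ratio of *Elovl4* to *Elovl1* was 2.30 to 3.02 in wild type mice against 1.95 to 3.32 in *Socs3* cKO mice at 2 weeks, and did not separate the genotypes (log2 difference -0.03, exact permutation p = 0.829). At 10 weeks the values were 1.81, 1.84 and 1.43 in wild type mice and 5.24, 4.92, 3.20 and 3.23 in *Socs3* cKO mice. Every *Socs3* cKO mouse exceeded every wild type mouse, with a log2 difference of 1.26 (exact permutation p = 0.0571, adjusted 0.0857). The ratio of *Sptlc2* to *Sptlc1* was 0.506 to 0.527 in wild type mice against 0.362 to 0.487 in *Socs3* cKO mice at 2 weeks, with a log2 difference of -0.28 (exact permutation p = 0.0286, adjusted 0.0857). At 10 weeks it was 0.399 to 0.572 against 0.565 to 0.727, and the groups overlapped (log2 difference 0.44, exact permutation p = 0.114, adjusted 0.137). With the length and GC trend removed, *Elovl4* had a log2(FC) of 0.51 at 2 weeks and 1.31 at 10 weeks. *Elovl1* had 0.94 and 0.47 there, *Sptlc1* 0.48 and 0.27, and *Sptlc2* 0.37 and 0.30. *Aloxe3* had 1.37 and 0.43, and *Alox12b* 1.82 and 1.76. The ratios were not tested under that removal.

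**Figure D4:**
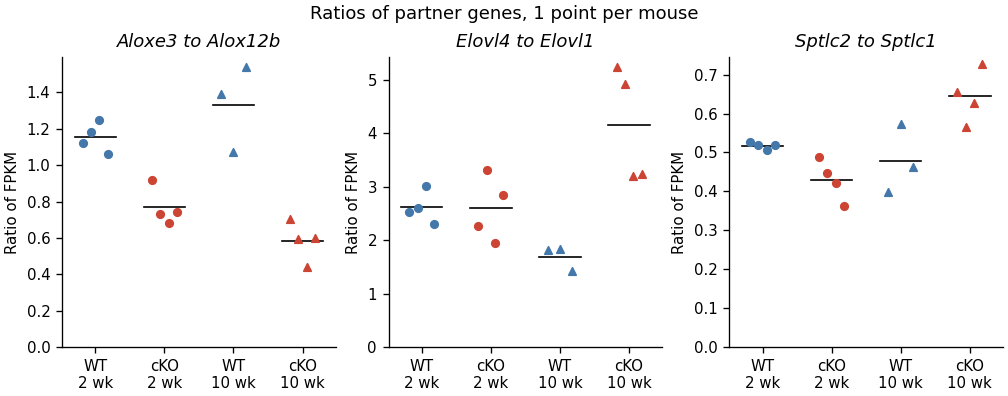
Ratio of FPKM (linear axes from 0) of 3 pairs of partner genes in each mouse, by genotype and age; WT is wild type, cKO is *Socs3* cKO, circles are mice of 2 weeks, triangles mice of 10 weeks, and black lines group means. The ratio of *Aloxe3* to *Alox12b* is lower in every *Socs3* cKO mouse than in any wild type mouse, and that of *Elovl4* to *Elovl1* is separate at 10 weeks, at 1.43 to 1.84 against 3.20 to 5.24.

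Other genes of the pathway were described from 6 lists of 66 textbook genes that are no members, of which 65 had values and 64 were tested. The lists too were chosen with earlier results of these data known. At 2 weeks 20 of the 64 were called higher and 1 lower in *Socs3* cKO, where 7.24% and 7.19% of all genes were. At 10 weeks 6 were called higher and none lower, where 12.5% and 2.43% of all genes were. The median log2(FC) was 0.713 at 2 weeks and 0.459 at 10 weeks, beside -0.211 and 0.312 over all genes. No list gene was called at 10 weeks without wild type mouse 3 (0 of the 6). In either direction, 10 were called at 2 weeks with the keratinocyte centring and 13 with the length and GC trend removed. Among those 10, *Alox12e* (-1.31), *Alox8* (-2.72), *B4galt6* (-1.30) and *Sgms2* (-1.14) were called lower. *Cyp51* (1.10), *Elovl3* (1.08), *Sc4mol* (1.48), *Sdr9c7* (1.29) and *Sptlc3* (1.31) were called higher there. *Sptlc3* and *Elovl5* were among the genes called higher at both ages. *Hmgcs1*, an enzyme of cholesterol synthesis, is listed at 0 in all 15 libraries and was not tested.

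In sphingoid base synthesis, 4 of 6 genes were up-regulated at 2 weeks. *Sptlc3*, the alternative partner of *Sptlc1*, was 13.4 ± 0.98 FPKM in wild type mice and 42.4 ± 8.5 in *Socs3* cKO (SD, n = 4 each; log2(FC) 1.63, SE 0.17, adjusted p = 0.00033 by limma). *1110002B05Rik*, now *Sptssa*, which encodes a small activating subunit of the same enzyme, was 111 ± 2.5 against 313 ± 54 FPKM, a 2.78-fold higher level, and its log2(FC) was -0.01 once the trend with transcript length and GC content was removed. The remaining calls were *Ormdl1* and *Ormdl2*, which are known to hold serine palmitoyltransferase back. *Ormdl2* had a log2(FC) of 1.22 (SE 0.25). With the length and GC trend removed no gene of this list was called, and *Sptlc3* was at 0.97, *Ormdl2* at 0.39 and *Ormdl1* at -0.07. At 10 weeks only *Sptlc3* of this list was called, at 9.12 ± 3.8 against 21.4 ± 1.6 FPKM (SD, n = 3 and 4; log2(FC) 1.32), and not without wild type mouse 3 or any 1 *Socs3* cKO mouse.

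In ceramide synthesis 2 of 8 genes were called higher at 2 weeks. *Degs1*, the desaturase of the last step, was 68.7 ± 3.1 FPKM in wild type mice and 171 ± 41 in *Socs3* cKO (SD, n = 4 each), and *Lass4*, now *Cers4*, was 39.8 ± 0.70 against 92.1 ± 21. *Degs1* fell from a log2(FC) of 1.28 to 0.67 with the length and GC trend removed and was not called there. At 10 weeks the call was another ceramide synthase, *Lass6* (now *Cers6*), at 0.72 ± 0.61 against 3.64 ± 1.3 FPKM (SD, n = 3 and 4), a level so low in the wild type that its 5.08-fold ratio depends on the pseudocount.

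In fatty acid supply and elongation 3 of 12 genes were called higher at 2 weeks and 1 at 10 weeks. *Elovl3*, an elongase also known from sebaceous glands, had a log2(FC) of 1.40 (SE 0.21), *Hsd17b12*, which reduces the product of each elongation round, 1.21 (SE 0.13), and *Elovl5*, which lengthens polyunsaturated fatty acids, 1.02 (SE 0.11). With the length and GC trend removed none of the 3 was called at 2 weeks, at 0.99 for *Elovl3*, 0.40 for *Hsd17b12* and 0.53 for *Elovl5*. *Elovl5* was also the call at 10 weeks, at 23.1 ± 6.5 against 74.8 ± 20 FPKM (SD, n = 3 and 4; log2(FC) 1.68, SE 0.28, adjusted p = 0.0022 by limma), which was lost without wild type mouse 3. The sebaceous markers given above were higher at both ages, and their part in *Elovl3* was not tested.

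In the acylceramide and lipoxygenase pathway, 1 of 9 genes rose and 1 fell at 2 weeks. *Sdr9c7*, the dehydrogenase that acts after both lipoxygenases, was 11.3 ± 2.4 FPKM in wild type mice and 34.2 ± 4.2 in *Socs3* cKO (SD, n = 4 each; log2(FC) 1.60, SE 0.19, adjusted p = 0.00056 by limma). *Alox8*, another lipoxygenase, was the sole gene of the lists called lower on the values as deposited, at 3.41 ± 0.70 against 0.70 ± 0.60 FPKM (log2(FC) -2.40, SE 0.48). At 10 weeks *Cyp4f39*, which hydroxylates the end of ultra-long fatty acids, was called at 13.1 ± 1.8 against 31.8 ± 8.1 FPKM (SD, n = 3 and 4), a 2.37-fold higher level. *Sdr9c7* had nearly the same log2(FC) at 10 weeks, 1.60, without being called.

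In ceramide release and turnover 1 of 10 genes was called higher at each age. At 2 weeks it was *Acer1*, an epidermal ceramidase, at 36.9 ± 2.4 FPKM against 92.3 ± 8.0 (SD, n = 4 each; log2(FC) 1.32). At 10 weeks it was *Asah1*, the acid ceramidase, at 25.2 ± 7.4 against 61.8 ± 17 FPKM (SD, n = 3 and 4; log2(FC) 1.30), which was lost without wild type mouse 1 or 3.

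Cholesterol synthesis and sulfation was the list with the most calls at 2 weeks, 9 of 19 higher and none lower. *Sc4mol*, now *Msmo1*, a sterol oxidase, was 82.7 ± 3.5 FPKM in wild type mice and 294 ± 73 in *Socs3* cKO (SD, n = 4 each; log2(FC) 1.80, SE 0.18, adjusted p = 0.00032 by limma). *Cyp51*, which demethylates lanosterol, had a log2(FC) of 1.41 (SE 0.18) and *Fdft1*, the squalene synthase, of 1.30 (SE 0.22). The list's median was 1.12 at 2 weeks and 0.343 at 10 weeks, the latter next to 0.312 for all genes.

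**Figure D5:**
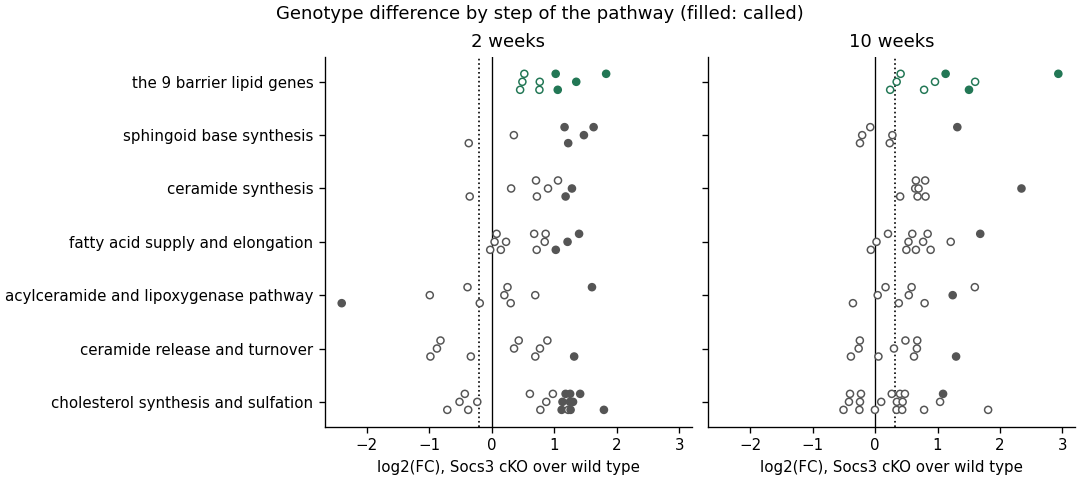
log2(FC) of *Socs3* cKO over wild type on log2(FPKM + 0.1), 1 point per gene, for the members (green) and 6 lists of other barrier lipid genes (grey) at 2 weeks (left) and 10 weeks (right); filled points were called and the dotted line marks the median of all genes tested. The median of the sphingoid base list is 1.19 at 2 weeks and 0.0784 at 10 weeks, and that of the cholesterol list 1.12 and 0.343.

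The levels of the members were correlated across the mice, and pairs of genes outside the members were not computed for comparison. Over the 15 mice, Pearson's r of log2(FPKM + 0.1) was 0.317 to 0.95 for the 36 pairs of members, with a median of 0.788. With the group means removed, it was 0.0679 to 0.94, with a median of 0.603. The highest of the latter was that of the neighbours *Alox12b* and *Aloxe3* (0.94) and the lowest that of *Elovl4* and *Sptlc2* (0.0679). The points share their groups and the scaling of each library, and the values are given as a description.

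The genes whose pattern over the 15 mice was most like that of a member were named by Pearson's r. For *Abca12* they were *Tnpo1* (0.988) and *Dsc1* (0.987), a desmosomal cadherin of the upper epidermis that is also among the suprabasal markers. For *Alox12b* the first was *Sdr9c7* (0.963), named above for the step after the lipoxygenases. *Aloxe3* was most like *C2cd2* (0.951) and *Serpinb13* (0.934), and *Ugcg* like *Ndfip2* (0.967) and *Slc19a2* (0.962). *Elovl1* and *Sptlc1* shared *Mboat2* (0.953 and 0.969), beside *Glrx* (0.958) for the former and *Hal* (0.970), the histidase of the upper epidermis, for the latter. *Elovl4* was most like *Tmem56* (0.974) and *Cyp3a57* (0.963), *Smpd1* like *Inpp5b* (0.969) and *Snrnp200* (0.967), and *Sptlc2* like *2010106G01Rik* (0.988) and *Vps26a* (0.975).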

How the data were processed

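Ear RNA of 15 mice was read by the authors as single reads of 50 bases and aligned to mm9 with TopHat2 2.1.0. The authors deposited FPKM values for 21110 genes per mouse, and the submitters' processing notes also name Cufflinks. Groups and replicate numbers came from the labels. Read counts were not used here. The depth behind each value was estimated, at 11700000 to 16700000 mapped reads, from what 1 read is worth among the lowest values, and no counting error was derived.

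A linear model in limma 3.58.1 (R 4.3.3, trend in the prior variance) was fitted to log2(FPKM + 0.1) of all genes that reached an FPKM of 1 in 3 or more samples of the fit, 2-sided, with Benjamini-Hochberg adjustment, on the groups of 1 age for the genotype and on all 4 groups for the interaction and for age. Fold changes on this scale understate the change of low genes. The limma step was tested on simulated data. Ratios were compared by exact permutation over mice. Python 3.11.15, scipy 1.17.1, numpy 2.4.6, pandas 2.3.3 and matplotlib 3.10.9 were used. The members, lists, ratios and alternatives were chosen with earlier results of these data known. The text names all members, up to 3 called genes per list and age, and the 2 genes with a mean FPKM of at least 1 most like each member. It also names *Ormdl1*, *Lass2*, *Sgms2*, *Alox12e*, *B4galt6* and *Hmgcs1*, which were chosen after their values were seen. Results for some genes under this rule are not reported here. Alternatives were pseudocounts of 1 and 0.01, no filter and a stricter one, median-of-ratios scaling, quantile normalization, centring on keratinocyte markers, a replicate block, a constant prior variance, other samples in the fit, an adjusted p below 0.05 without a fold limit and leaving out each mouse. After seeing the data, 1 more was added, with each library's trend with transcript length and GC content removed. Positions came from a GENCODE annotation of mm9 and promoters from RefSeq for GRCm38.p6.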

Additional observations from a re-analysis of the deposited data

Results flagged for a closer look

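In 36 groups of 4 values (the members' log2 levels and the log2 ratios), 3 held a value far from the others by Dixon's ratio, whose critical value is 0.829 and which chance passes in about 1 in 20 groups. They were *Abca12* in wild type mouse 3 at 2 weeks (ratio 0.854, the lowest of its group), *Alox12b* in *Socs3* cKO mouse 1 at 2 weeks (0.882, the lowest) and *Sptlc2* in the same mouse (0.949, the highest). Without that *Socs3* cKO mouse the log2(FC) at 2 weeks was 1.58 for *Alox12b*, which stayed called, and 0.42 for *Sptlc2*, which stayed not called.

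The genotype difference differed between the ages for 11 of the 64 list genes tested (limma interaction test, adjusted p below 0.01). Of all 13937 genes tested 25.6% passed, 2583 with an interaction above 0 and 983 with an interaction below 0. The median interaction of all genes was 0.553 on the values as deposited. Among the 11, the interaction was below 0 for 9 and above 0 for 2. Of the 9, the interaction was -1.55 for *1110002B05Rik* (*Sptssa*), -1.37 for *Ormdl1*, -1.47 for *Ormdl2*, -1.27 for *Acer1*, -1.35 for *Sc4mol* (*Msmo1*) and -1.20 for *Fdft1* on the log2 scale. The 2 in the other direction were *Lass2* (now *Cers2*, 1.05) and *Sgms2* (1.5), which are named after their values were seen. On the values as deposited both changed sign, and neither was called at either age. The log2(FC) was -0.35 at 2 weeks and 0.70 at 10 weeks for *Lass2*, and -0.82 and 0.67 for *Sgms2*. The keratinocyte centring, which moves every log2(FC) by -0.946 at 10 weeks, puts both genes below 0 at both ages.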

How the results depend on the processing

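*Abca12* was called at both ages under every alternative, 19 at 2 weeks and 18 at 10 weeks. The labels do not say whether mice with the same replicate number belong together. Deviations of same-numbered mice correlated at -0.057 to 0.057 at 2 weeks and -0.203 to 0.036 at 10 weeks. Those of other-numbered mice correlated at -0.142 to 0.091 and -0.211 to 0.156. With the replicate block, 1 member and 11 list genes were called at 2 weeks, and the log2 ratio differences of -0.59 (*Aloxe3* to *Alox12b*) and -0.28 (*Sptlc2* to *Sptlc1*) had a p of 0.125, the smallest that this exact test allows with 4 pairs. The members called at 2 weeks (4) became 2 with quantile normalization, 2 with keratinocyte centring, 8 at an adjusted p below 0.05 without a fold limit, and 2 to 4 on leaving out a mouse (2 without wild type mouse 3 or *Socs3* cKO mouse 3 or 4). At 10 weeks (3) they became 1 with the centring, 6 at the looser limit and 1 to 4 on leaving out a mouse (1 without wild type mouse 3). The interaction (0) became 2 with median-of-ratios scaling, 1 with quantile normalization, 1 at the looser limit and 0 to 1 on leaving out a mouse (1 without wild type mouse 2 of 10 weeks or *Socs3* cKO mouse 2 of 2 weeks). The age change in the wild type (1) became 0 with a pseudocount of 1, each scaling, removal of the length and GC trend and a fit on 1 genotype, 3 at the looser limit, and 0 to 2 on leaving out a mouse. In *Socs3* cKO (0) it became 1 with median-of-ratios scaling, 2 at the looser limit and 0 to 1 on leaving out a mouse (1 without mouse 2 of 2 weeks). The list genes called in either direction at 2 weeks (21) became 10 with the centring, 13 without the length and GC trend, 37 at the looser limit and 14 to 26 on leaving out a mouse. At 10 weeks (6) they became 3 without a filter, 3 with median-of-ratios scaling, 3 with quantile normalization, 16 at the looser limit and 0 to 8 on leaving out a mouse (0 without wild type mouse 3, and 2 without *Socs3* cKO mouse 1, 2 or 3). Over the mice left out, the log2 ratio difference of *Aloxe3* to *Alox12b* ranged from -0.68 to -0.54 at 2 weeks and -1.35 to -1.06 at 10 weeks, that of *Sptlc2* to *Sptlc1* from -0.34 to -0.20 and 0.32 to 0.58, and that of *Elovl4* to *Elovl1* from -0.16 to 0.094 and 1.14 to 1.37. The 2-week *Elovl4* to *Elovl1* value turned above 0, to 0.039, 0.022 and 0.094, without wild type mouse 3, *Socs3* cKO mouse 1 and *Socs3* cKO mouse 3. At 10 weeks the log2(FC) turned to -0.54 for *Aloxe3*, -0.71 for *Elovl1*, -0.60 for *Sptlc1* and -0.16 for *Sptlc2* with the centring, and to -0.019 for *Elovl1* with median-of-ratios scaling. The cause of these changes was not tested, except that the looser limit can only add calls by its construction. The share of all genes that passed the looser limit was not computed. The ratio tests cannot go below 0.0571 with 3 against 4 mice, so their loss of a p below 0.05 says nothing of stability.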
